A study of Mus musculus with 2 samples.

Results

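Microglia are the resident macrophages of the brain. They descend from yolk sac progenitors, renew themselves in place and depend on signalling through the receptor Csf1r and on TGF-beta for their identity. In gliomas they lie beside macrophages that come from the blood, which share most of their genes. The purine receptor P2ry12, the transcription factor Sall1, the Fc receptor-like protein Fcrls and the crystallin Crybb1 are used in mice to tell the resident cells from the recruited ones.

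The cells were CD45+ cells, that is, leukocytes including microglia, from GL261 gliomas. GL261 is a mouse glioma line, and it had been placed in the brains of C57BL/6 mice. The ibudilast library came from mice given 20 mg/kg ibudilast by gavage, 5 times per week for 2 weeks, and the PBS library from mice given PBS on the same schedule. Ibudilast blocks several phosphodiesterases, which break down cyclic nucleotides, and also the cytokine MIF. The treatment label of the PBS library reads untreated. The number, sex and age of the mice behind each library are not given in the sources used here, and any pooling of animals is not stated either. With 1 library per group there was no replicate and no test, so every ratio compares these libraries and not the treatments. Intervals are 95% intervals for counting error only and leave out the spread between cells and between mice.

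Microglia were taken as barcodes with at least 3 UMIs (unique molecules counted) over P2ry12, Sall1 and Fcrls and at least 0.5% of UMIs on C1qa and C1qb, which encode complement C1q of tissue macrophages. They also had fewer than 2 UMIs of the T cell genes Cd3d, Cd3e and Cd3g and fewer than 3 of the monocyte gene Ly6c2. The rule was applied to barcodes that had 300 genes and 500 UMIs or more and less than 10% of UMIs on mitochondrial genes. It selected 149 of 7079 such barcodes in the ibudilast library and 397 of 8155 in the PBS library, or 546 of 15234 in all. They held 1888799 UMIs in the ibudilast library and 7187129 in the PBS library, with medians of 11392 and 17618 per barcode. The selected barcodes of the ibudilast library were therefore shallower, and levels are given as CPM (UMIs summed over a set, on the counts-per-million scale). Both libraries shared 19 barcode sequences, and 0 of them were selected in both. Over all barcodes the medians were 6809 UMIs in the ibudilast library and 11052.5 in the PBS library, and the mitochondrial limit removed 15.6% and 8.93% of barcodes.

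The promoters of 3 of the 4 marker genes are shown because these genes chose the barcodes or checked the choice. They are the 250 bases before the RefSeq start on GRCm38.p6, read 5′ to 3′ on the gene's strand, and lie at chr3:59262986-59263235 (minus strand, P2ry12), chr3:87263525-87263774 (minus strand, Fcrls) and chr5:112255570-112255819 (plus strand, Crybb1). Capitals mark GAGGAA, a purine-rich sequence bound by the myeloid factor PU.1 (gene Spi1), and variants of it are not marked.
P2ry12: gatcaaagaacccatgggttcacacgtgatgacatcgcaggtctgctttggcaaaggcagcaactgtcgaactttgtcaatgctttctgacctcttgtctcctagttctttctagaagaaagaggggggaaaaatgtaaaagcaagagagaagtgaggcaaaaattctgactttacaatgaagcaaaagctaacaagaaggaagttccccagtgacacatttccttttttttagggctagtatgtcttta
Fcrls: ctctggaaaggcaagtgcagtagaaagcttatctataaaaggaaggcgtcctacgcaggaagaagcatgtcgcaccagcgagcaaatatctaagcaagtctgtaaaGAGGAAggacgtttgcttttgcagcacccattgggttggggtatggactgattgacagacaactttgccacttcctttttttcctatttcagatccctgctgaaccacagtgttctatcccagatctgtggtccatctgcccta
Crybb1: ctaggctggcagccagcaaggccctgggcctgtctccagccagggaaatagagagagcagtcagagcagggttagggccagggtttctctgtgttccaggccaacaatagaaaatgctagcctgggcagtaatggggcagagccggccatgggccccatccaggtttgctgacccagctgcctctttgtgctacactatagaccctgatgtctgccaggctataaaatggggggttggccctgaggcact
The exact GAGGAA was found once in the Fcrls window, 144 bases before the start, and not in the P2ry12 or Crybb1 window, on either strand. It occurred in 23.3% of 32851 mouse promoter windows, so its presence or absence in one window says little, and the longer GAGGAAGT occurred in 2.44% of them and in none of the 3 shown.

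The members were chosen by counts of P2ry12, Sall1 and Fcrls, so their levels are a description. Fcrls had a UMI in 92.6% of the selected barcodes of the ibudilast library and in 94.7% of those of the PBS library. P2ry12, the ADP receptor that steers microglial processes, had one in 57.7% and 65.0%. Sall1 had one in 26.2% and 30.2%. All 3 genes were seen together in 16.1% of ibudilast and 23.4% of PBS barcodes, while 34.2% and 29.0% carried Fcrls with no UMI of the other 2. Selection thus rested mainly on Fcrls UMIs in both libraries. Just inside the limit, 31 ibudilast and 78 PBS barcodes had exactly 3 UMIs of these genes, and just outside it 66 and 206 barcodes with the same C1q, Cd3 and Ly6c2 limits had 2.

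Crybb1 was not part of the rule. It stood at 72.5 CPM in the ibudilast library (137 UMIs) and 63.7 CPM in the PBS library (458 UMIs). The same gene was at 2.12 and 2.01 CPM in C1q macrophage barcodes, which met the same C1q, Cd3 and Ly6c2 limits with 0 UMIs of the rule genes (724 ibudilast and 1799 PBS barcodes). T cell barcodes were the 633 and 355 with at least 3 Cd3 UMIs and under 0.1% of UMIs on C1qa and C1qb. In these, where Crybb1 should be absent, it was at 4.08 and 3.10 CPM. The C1q limit leaves out T cell barcodes mixed with macrophage RNA, so low levels there follow in part from that choice. Crybb1 was thus far above both other sets in the summed set, and 21.5% of ibudilast and 29.7% of PBS members had a UMI of it. After each barcode was thinned to 3000 UMIs these shares were 12.6% and 11.6%, against 1.30% and 1.44% of T cell barcodes.

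The label did not hold evenly across the members. They were ordered by the summed CPM of the 3 rule genes in the barcode itself, called rule-gene CPM. Every member has at least 3 UMIs of these genes, so a shallow barcode cannot have a low value and the order also follows depth. Below a rule-gene CPM of 300 lay 32 ibudilast and 127 PBS barcodes, called the lower range, all with at least 10803 UMIs. The other 117 and 270 form the upper range, and 14 and 38 barcodes lay between 250 and 350. The cut is a limit set after the values were seen and not a border between cell types, and it places every member with fewer than 10000 UMIs in the upper range.

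In the lower range Crybb1 was at 6.78 CPM in the ibudilast library and 4.43 CPM in the PBS library (5 and 13 UMIs), against 115 and 105 CPM in the upper range and 2.12 and 2.01 CPM in C1q macrophage barcodes. The matricellular gene Sparc was at 12.2 and 18.7 CPM in the lower range, 489 and 372 CPM in the upper range, and 11.9 and 5.35 CPM in C1q macrophage barcodes. Serpine2, a protease inhibitor, was at 10.9 and 11.9 CPM, 198 and 251 CPM, and 3.39 and 2.36 CPM in the same order of sets. These microglial genes were thus far below their upper-range level in the lower range, and at or above the macrophage level. Genes of recruited and antigen-presenting macrophages went the other way. Tgfbi, a matrix protein of recruited macrophages, was at 1436 and 1159 CPM in the lower range, 451 and 425 CPM in the upper range, and 1454 and 1597 CPM in C1q macrophage barcodes. The MHC class II gene H2-Aa was at 8335 and 8376 CPM in the lower range, 3456 and 3246 CPM in the upper range, and 9547 and 10447 CPM in C1q macrophage barcodes. The lower range therefore stood between the upper range and the C1q macrophage barcodes for most of these genes, closer to the macrophages, and results are also given for the upper range alone.

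**Figure D1:**
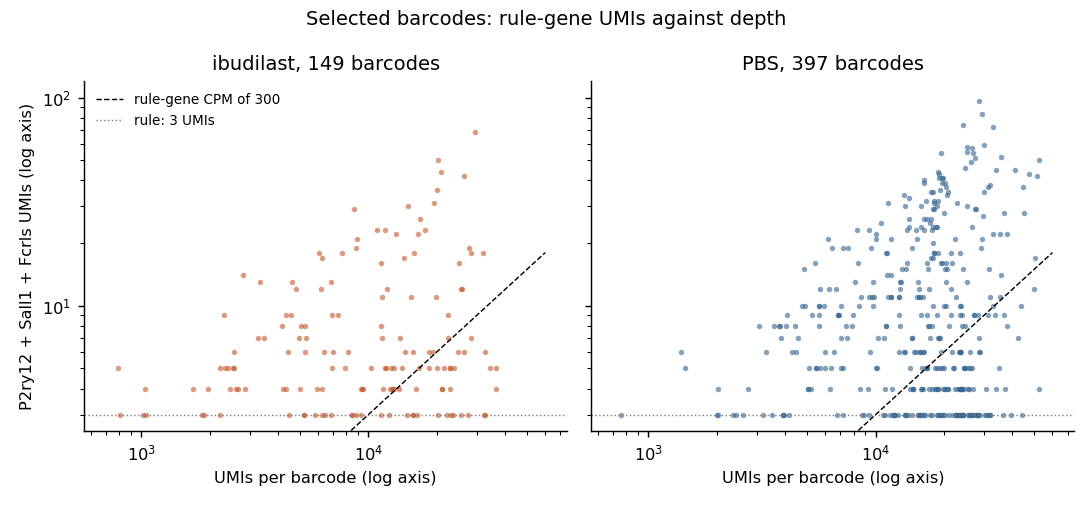
Each point is a selected barcode, with its total UMIs on the x axis and its summed UMIs of P2ry12, Sall1 and Fcrls on the y axis (both log axes), for the ibudilast (left, 149 barcodes) and PBS library (right, 397 barcodes). The dotted line is the limit of 3 UMIs and the dashed line a rule-gene CPM of 300, below which 32 ibudilast and 127 PBS barcodes lie, all of them deep.

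Other genes were followed along 5 ranges of rule-gene CPM. Crybb1 was at 2.17, 14.4, 62.3, 167 and 143 CPM in the ibudilast library from the range under 200 to the range of 1200 or more (18, 14, 36, 22 and 59 barcodes). In the PBS library it was at 3.86, 5.35, 71.8, 113 and 120 CPM over the same ranges (72, 55, 59, 95 and 116 barcodes). Ctsd, the lysosomal aspartic protease cathepsin D, was at 1507 CPM in the lowest and 15475 CPM in the highest range of the ibudilast library, and at 1727 and 12903 CPM in those of the PBS library. H2-Aa was at 7687 and 2929 CPM in the lowest and highest ranges of the ibudilast library, and at 8505 and 1693 CPM in those of the PBS library. Microglial genes that the rule did not read were therefore denser where the rule genes were, and class II genes sparser, in both libraries. At least 2 UMIs over Crybb1, Siglech, Sparc and Serpine2 were seen in 11.1% of ibudilast and 8.33% of PBS barcodes of the lowest range and in 74.6% and 86.2% of the highest. These shares were not thinned. The median depth was 23377 UMIs in the lowest and 4623 in the highest range of the ibudilast library, and 24044.5 and 13417 in those of the PBS library.

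**Figure D2:**
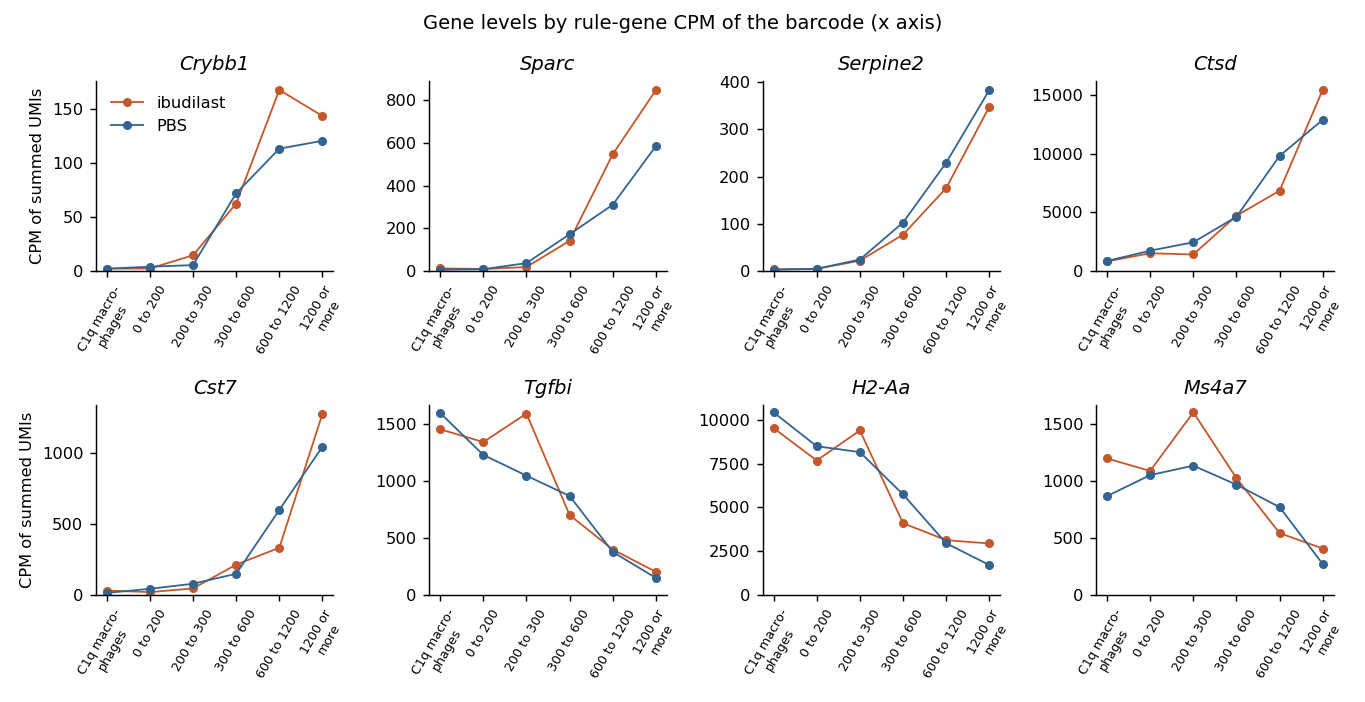
CPM of 8 genes (y axes) in C1q macrophage barcodes and in the selected barcodes split by rule-gene CPM (x axis), for the ibudilast (orange) and PBS library (blue). Crybb1, Sparc, Serpine2, Ctsd and Cst7 are higher above a rule-gene CPM of 300 than below it, while Tgfbi and H2-Aa are lowest in the highest range, where Crybb1 is at 143 CPM in the ibudilast and 120 CPM in the PBS library.

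As a share of all kept barcodes the selected ones were 2.10% in the ibudilast library (interval 1.78 to 2.47) and 4.87% in the PBS library (4.41 to 5.36), a ratio of 0.432 (0.356 to 0.523). Barcodes that met the C1q, Cd3 and Ly6c2 limits, with or without the rule genes, were 16.1% and 36.9% of kept barcodes, a ratio of 0.436 (0.407 to 0.467). Of those C1q barcodes the selected ones were 13.1% (11.2 to 15.2) in the ibudilast library and 13.2% (12.01 to 14.5) in the PBS library, a ratio of 0.992 (0.816 to 1.20). The selected barcodes were thus a smaller share of kept barcodes in the ibudilast library, by about the same factor as C1q barcodes as a whole. The upper range was 1.65% and 3.31% of kept barcodes (ratio 0.499, interval 0.398 to 0.622), and the lower range, whose markers go against the label, 0.452% and 1.56% (ratio 0.290, 0.191 to 0.431). The upper range was 10.3% and 8.98% of C1q barcodes (ratio 1.14, interval 0.914 to 1.43). The sort sets which cells enter, shares of kept barcodes depend on every other cell type, and the libraries differed in depth and in barcodes lost to the mitochondrial limit. The part of these in the share was not tested.

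Set beside C1q macrophage barcodes, the selected barcodes had higher summed levels of genes of resident microglia and of lysosomes and lipid handling, among other lists. These contrasts follow from the choice of members and are descriptions. Of the genes with at least 100 UMIs over the 2 sets together, 5.72% in the ibudilast library and 7.72% in the PBS library were at least 1.5-fold above the macrophage level, and 7.18% and 5.53% were as far below it. Of 24 genes of homeostatic microglia, 20 in the ibudilast and 23 in the PBS library reached 100 UMIs, of which 18 and 22 were above by that fold and 0 below. Their summed level was 10668 CPM in the selected barcodes of the ibudilast and 10968 CPM in those of the PBS library, against 5066 and 5469 CPM in C1q macrophage barcodes. The same list summed to 2102 and 2153 CPM in T cell barcodes, where Cst3, a secreted protease inhibitor, supplied 1239 and 1327 CPM.

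Among single genes, Serpine2, a secreted inhibitor of serine proteases, was 36.8-fold above C1q macrophages in the ibudilast library and 64.9-fold in the PBS library. Siglech, a sialic acid-binding receptor, was 28.3-fold and 44.8-fold above. Sparc was 25.5-fold and 42.6-fold above. These are genes of brain-resident microglia, and each was at under 13 CPM in C1q macrophage barcodes of both libraries. Cx3cr1, the receptor for the neuronal chemokine fractalkine, was 1.83-fold and 1.95-fold above, and Csf1r 1.54-fold and 1.59-fold. Receptors that macrophages share with microglia thus stood closer to the macrophage level than the resident genes did.

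Genes of disease-associated microglia, a state in which microglia take up lipid and debris, were above the macrophage level by 1.5-fold for 14 of 22 genes in the ibudilast and 14 of 23 in the PBS library and below for 0. Their summed level was 58578 CPM in the selected barcodes of the ibudilast and 62258 CPM in those of the PBS library, against 34449 and 34920 CPM. Cst7, an inhibitor of lysosomal cysteine proteases, was 13.8-fold and 34.0-fold above C1q macrophages, but T cell barcodes also held 240 and 281 CPM of it. Its level in the members was close, at 395 and 400 CPM, while C1q macrophages held 28.6 and 11.8 CPM. Ctsd was 7.58-fold and 7.64-fold above. Trem2, the lipid receptor that this state requires in mice, was 4.38-fold and 5.05-fold above. Spp1, osteopontin, was 7.75-fold and 6.05-fold above. Apoc1, an apolipoprotein, was 32.6-fold and 36.1-fold above, with 31.1% of its ibudilast UMIs in 1 barcode. Of genes of lysosomes and cathepsins 5 of 13 in the ibudilast and 6 of 14 in the PBS library were above. Of 14 genes of lipid handling 5 were above and 1 below in each. Immunosuppressive macrophage genes were also above for 6 of 11 in the ibudilast and 6 of 14 in the PBS library, and below for 2 in each.

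Pmp22, a membrane protein best known from myelin, was 18.6-fold above C1q macrophages in the ibudilast and 49.6-fold in the PBS library. Npl, an enzyme of sialic acid breakdown, was 11.1-fold and 13.4-fold above. Cryba4, like Crybb1 a crystallin gene, was 10.7-fold and 14.5-fold above. Gas6, the ligand of the uptake receptors Axl and Mertk, was 9.71-fold and 13.5-fold above. Cxcl13, a chemokine that draws B cells, was 9.93-fold and 21.1-fold above, with 33.6% and 28.8% of its UMIs in 1 barcode. Each of these 5 genes was at under 10 CPM in C1q macrophage barcodes of both libraries, so the folds rest on small levels there.

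Class II antigen presentation went the other way. Of 10 class II genes, 5 in the ibudilast and 6 in the PBS library were below the macrophage level by 1.5-fold. Their summed level was 28189 CPM in the selected barcodes of the ibudilast and 28022 CPM in those of the PBS library, against 49507 and 54516 CPM in C1q macrophages. In the upper range alone it was 17604 and 16904 CPM, and in the lower range 44731 and 44120 CPM. Cd74, the invariant chain and also the receptor of MIF, was at 10409 and 10819 CPM in the selected barcodes, against 16197 and 19490 CPM. The summed class II level of the set was thus a blend of a low upper range and a high lower range.

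**Figure D3:**
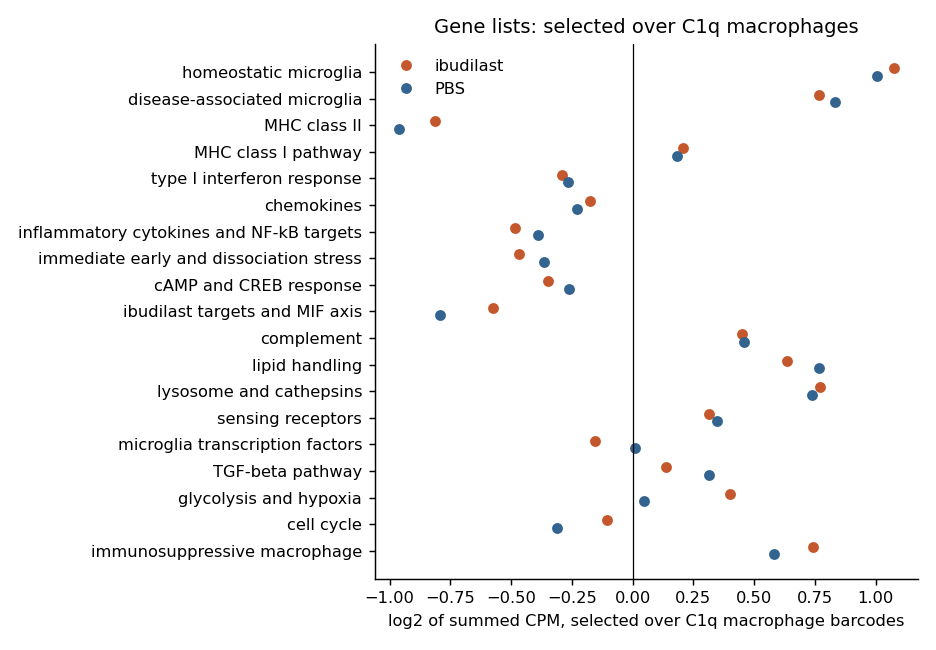
Log2 of the summed CPM of each gene list in the selected barcodes over that in C1q macrophage barcodes (x axis), for the ibudilast (orange) and PBS library (blue). Homeostatic microglia genes lie furthest right and MHC class II genes furthest left in both libraries, with summed class II levels of 28189 and 28022 CPM against 49507 and 54516 CPM.

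The members also differed among themselves in the percent of UMIs on each list. Homeostatic genes made up a median of 1.03% of a barcode's UMIs in the ibudilast library (lowest 0.161%, highest 14.6%) and 0.992% in the PBS library (lowest 0.137%, highest 8.97%). Disease-associated genes made up 5.36% (0.951% to 18.2%) and 5.66% (0.912% to 26.0%). Class II genes made up 1.65% (0.136% to 10.1%) and 1.57% (0.0404% to 10.4%). The medians of the libraries lay close together, while the highest barcode was higher in the ibudilast library for homeostatic and in the PBS library for disease-associated genes. The quartiles for class II genes were 0.548% and 3.24% in the ibudilast and 0.573% and 3.87% in the PBS library. This spread pools the upper and lower ranges. Class II medians were 1.11% and 0.905% in the upper and 4.26% and 4.38% in the lower range. Homeostatic medians were 1.27% and 1.35% in the upper and 0.519% and 0.589% in the lower range. Barcodes were not thinned, and the 14.6% and 0.137% came from barcodes with 2799 and 1456 UMIs, so the spread is not one of state alone.

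**Figure D4:**
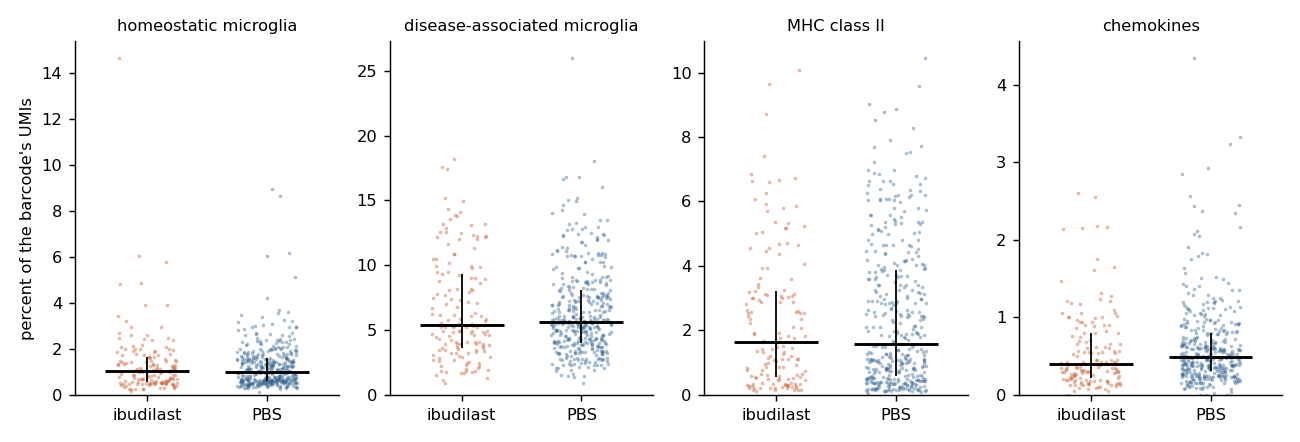
Percent of each selected barcode's UMIs on 4 gene lists (y axes), ibudilast left (149 barcodes) and PBS right (397 barcodes). Each point is a barcode, the horizontal bar the median and the vertical bar the quartiles, and the bulk of the barcodes overlaps, with class II medians of 1.65% and 1.57%, while the highest barcodes differ, at 14.6% and 8.97% for homeostatic and 18.2% and 26.0% for disease-associated genes.

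Within the upper range, barcodes were sorted by whether a UMI of Siglech or Sparc and a UMI of Cst7 was seen after thinning to 3000 UMIs (95 ibudilast and 260 PBS barcodes). Both kinds of gene were seen in 35.8% of ibudilast (interval 26.2 to 46.3) and 36.2% of PBS barcodes (30.3 to 42.3). Cst7 alone was seen in 24.2% and 24.6%. Siglech or Sparc alone was seen in 11.6% and 13.1%, and neither in 28.4% and 26.2%. The intervals of the libraries overlapped for all 4 shares, and in both libraries Cst7 was seen with Siglech or Sparc more often than these were seen alone. In C1q macrophage barcodes thinned alike Cst7 was seen in 6.25% and 3.10% and Sparc in 2.78% and 1.85%, while 52.6% and 56.6% of T cell barcodes held a UMI of Cst7. Across the upper-range barcodes the levels of Cst7 and Ctsd had a Spearman rho of 0.69 in the ibudilast and 0.67 in the PBS library, the highest of the pairs examined. Sparc and Cst7 had 0.29 and 0.23, and Sparc and Spp1 −0.11 and −0.18. The homeostatic and disease-associated lists had 0.055 and −0.026. These points share a library and a fixed depth, and cells are not replicates.

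Most genes of the members lay within 1.5-fold between the libraries. Of 6999 genes with at least 100 UMIs over both libraries, 185 (2.64%) were at least 1.5-fold higher and 194 (2.77%) at least 1.5-fold lower in the ibudilast library, and the median log2 ratio over all of them was −0.0005. These shares are the background for the counts of list members past the fold given below. With each barcode weighted alike instead of by its UMIs, 300 genes were higher and 542 lower, and 117 and 145 of the first calls were among them. Of the 4 markers, Crybb1 had a ratio of 1.14 (interval 0.933 to 1.38), but 0.693 among the 90 and 266 members with 0 UMIs of Cd3 and Ly6c2. P2ry12 was at 123 CPM in the ibudilast and 97.8 CPM in the PBS library (ratio 1.26), Fcrls at 566 and 611 CPM (ratio 0.927), and Sall1 at 31.2 and 30.7 CPM (ratio 1.02). P2ry12, Fcrls and Sall1 chose the members, and the limit of 3 UMIs sets a higher lowest CPM in a shallower barcode. Their ratios therefore follow in part from the rule and are no result about the members. Homeostatic genes had 0 members higher and 1 lower of 23 tested, with a median log2 ratio of −0.10, or 0.13 with each barcode weighted alike. The 1 lower gene was Sall3, a transcription factor gene of the Sall family, with 16 and 96 UMIs (ratio 0.634, interval 0.349 to 1.08). Sparc was at 303 and 228 CPM (ratio 1.33, interval 1.21 to 1.46), and Siglech at 64.1 and 44.1 CPM (ratio 1.45, interval 1.17 to 1.80). Among members with 0 UMIs of Cd3 and Ly6c2 their ratios were 0.858 and 1.02. Without members that had 3 or more UMIs of other immune cells' markers they were 1.78 and 2.24, both past the fold. Serpine2 was at 125 and 153 CPM (ratio 0.816, interval 0.706 to 0.94). Csf1r was at 580 and 686 CPM (ratio 0.845) and Cx3cr1 at 627 and 748 CPM (ratio 0.838). Tmem119 was at 250 and 286 CPM (ratio 0.875). The tested homeostatic genes thus differed in both directions by less than the fold used, apart from Sall3, but 2 were higher and 0 lower without members with oligodendrocyte or other immune cell UMIs.

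The CC chemokines Ccl2 and Ccl3 were lower and Ccl5 and Ccl8 higher in the ibudilast library. Of 14 chemokine genes tested, 2 were higher and 2 lower by 1.5-fold, beside 2.64% and 2.77% of all tested genes. Their median log2 ratio was −0.30 beside −0.0005 over all genes. Ccl2, which draws monocytes through Ccr2 (chr11:82035571-82037453 on mm10), was at 311 CPM in the ibudilast and 568 CPM in the PBS library (587 and 4083 UMIs), a ratio of 0.547 (interval 0.501 to 0.597). It was 0.550 in the upper range. Ccl3, a ligand of Ccr1 (chr11:83647844-83649355), was at 284 and 488 CPM, a ratio of 0.583 (0.531 to 0.638), while T cell barcodes held 522 and 432 CPM of it. Ccl12, a further ligand of Ccr2, was at 742 and 1042 CPM (ratio 0.712, 0.672 to 0.754), and Ccl4 at 934 and 1147 CPM (ratio 0.814). Cxcl9 and Cxcl16, ligands of chemokine receptors on T cells, had ratios of 0.969 and 1.01. The difference in Ccl2 lay in the amount more than in the share of barcodes: thinned to 3000 UMIs, 48.0% of ibudilast and 50.9% of PBS members had a UMI of it, against 10.9% and 9.48% of T cell barcodes, and 1 PBS barcode held 15.7% of the Ccl2 UMIs.

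In C1q macrophage barcodes Ccl2 was also lower, with a ratio of 0.606 (0.577 to 0.636), while Ccl3 and Ccl12 had ratios of 0.720 and 0.786, within the fold. The chemokine list had a median log2 ratio of −0.33 there. The difference between microglia and macrophages was not tested, since each has 1 library per group. The 2 higher chemokines were Ccl5 and Ccl8. Ccl5, which T and NK cells make in quantity, was at 915 CPM in the ibudilast and 495 CPM in the PBS library (ratio 1.85), at a ratio of 1.90 in C1q macrophages, and at 3114 and 2616 CPM in T cell barcodes. Ccl8 was at 284 and 172 CPM (ratio 1.66), with 5 barcodes holding 53.1% of its ibudilast and 32.5% of its PBS UMIs.

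Inflammatory cytokines and NF-kB targets had 0 members higher and 2 lower of 14 tested, beside 2.64% and 2.77% of all tested genes. Their median log2 ratio was −0.21. Il1b was at 184 CPM in the ibudilast and 276 CPM in the PBS library (ratio 0.666, interval 0.592 to 0.747), but had ratios of 0.406 with 5 rule-gene UMIs and 0.797 without other immune cells' UMIs, the second within the fold. Il1a was at 43.4 and 67.5 CPM (ratio 0.643). Tlr2, the receptor for bacterial lipoproteins, was at 102 and 149 CPM (ratio 0.683), just within the fold. Nfkbia, the inhibitor that NF-kB induces, had a ratio of 0.953 (309 and 325 CPM). Genes of the immediate early response and of dissociation stress, which cell preparation can induce, had 0 of 19 members past the fold and a median log2 ratio of −0.18, with Fos at 1314 and 1560 CPM. Their part in the cytokine and chemokine values was not tested.

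Disease-associated genes had a median log2 ratio of −0.13, or 0.064 without members that held at least 3 UMIs of other immune cells' markers. Of 23 tested, 0 were higher and 3 lower, beside 2.64% and 2.77% of all tested genes. The 3 were Lpl, Csf1 and Ank, a pyrophosphate transporter gene with 17 and 118 UMIs (ratio 0.548). Lpl, lipoprotein lipase, was at 114 CPM in the ibudilast and 208 CPM in the PBS library (ratio 0.548, interval 0.473 to 0.633; 0.348 with Cd3 and Ly6c2 at 0), and at a ratio of 0.480 in C1q macrophages. Csf1, a ligand of Csf1r, was at 58.2 and 103 CPM (ratio 0.567, 0.460 to 0.694; 0.371 with Cd3 and Ly6c2 at 0), and was seen in 13.4% and 22.5% of barcodes thinned to 3000 UMIs, against 13.4% and 11.5% of T cell barcodes. Other genes of the list were within the fold: Apoe had a ratio of 0.909, Ctsd of 0.952, Spp1 of 0.955, Trem2 of 0.938 and Cst7 of 0.989. Spp1 was at 1.56 without other immune cells' UMIs, past the fold, and Cst7 at 1.47 with each barcode weighted alike. Lgals3, galectin 3, was at 2011 and 1503 CPM (ratio 1.34). Lipid handling genes had 2 members lower of 14, Lpl and the fatty acid receptor gene Cd36 (37.1 and 63.3 CPM, ratio 0.585). Abca1, which exports cholesterol, had a ratio of 0.957 and Plin2, a lipid droplet protein, of 1.03.

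**Figure D5:**
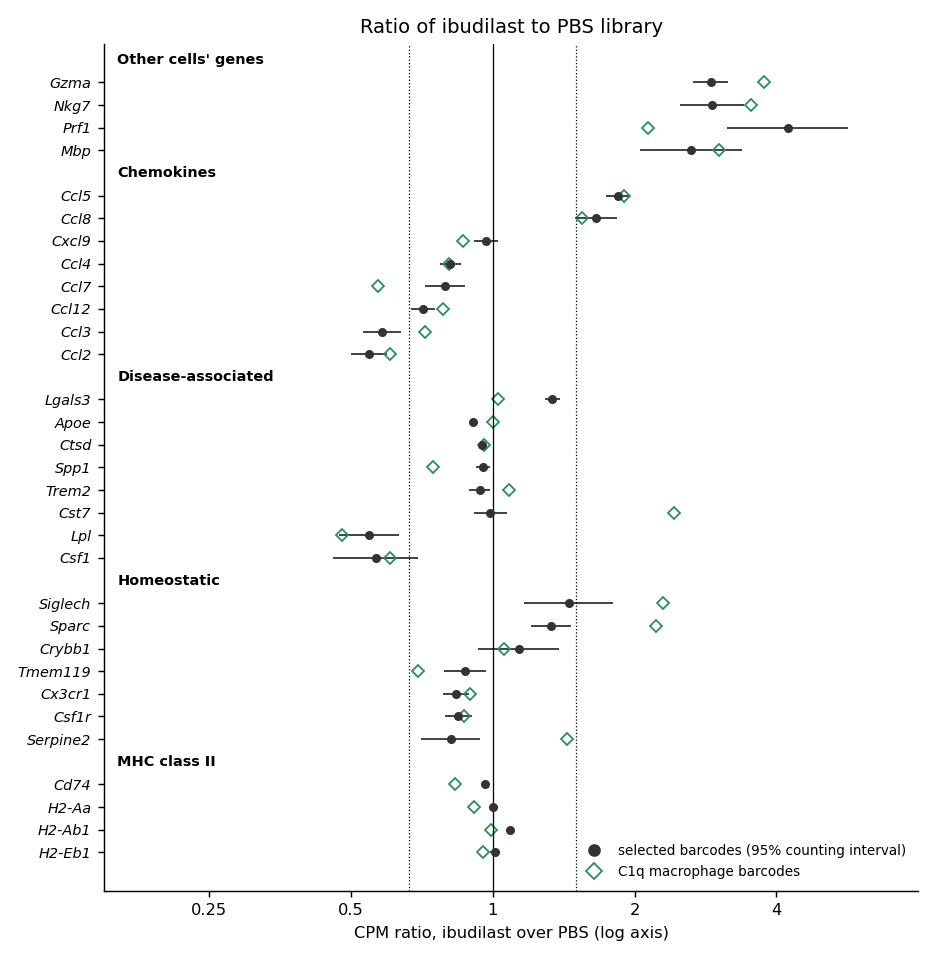
CPM ratio of the ibudilast over the PBS library (x axis, log axis) for named genes in the selected barcodes (filled circles with 95% counting intervals) and in C1q macrophage barcodes (open diamonds). Dotted lines mark 1.5-fold each way. Ccl2, Ccl3, Lpl and Csf1 lie left of the lower line, most homeostatic, disease-associated and class II genes near 1, and genes of killer cells and myelin far right in both sets.

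Lists of antigen presentation, sensing and signalling showed no shift past the fold. Class II genes had 0 of 10 members past 1.5-fold and a median log2 ratio of −0.01 (0.11 in the upper range, and −0.17 without members that held at least 3 UMIs of other immune cells' markers), with H2-Aa at 5360 CPM in the ibudilast and 5341 CPM in the PBS library. The class I pathway had 0 of 13 past it and a median of 0.10, with H2-K1 at 3869 and 3414 CPM. Sensing receptors had 0 of 20, complement 0 of 10, lysosomal genes 0 of 14 and the TGF-beta pathway 0 of 10, with medians of −0.11, −0.02, −0.03 and −0.15. Tgfbr2, the TGF-beta receptor that microglia need for their identity in mice, was at 116 and 152 CPM (ratio 0.768, interval 0.661 to 0.889). Microglial transcription factors had 0 of 16 higher and 2 lower, Klf4 (ratio 0.651) and Sall3, while Spi1, which encodes PU.1, had a ratio of 0.954 and Irf8 of 0.905. Type I interferon genes had 1 of 17 higher, Ifit1 (ratio 1.77), of which 1 barcode held 43.4% of the ibudilast UMIs, and a median of 0.06.

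The genes nearest to the drug were few in these cells. Of 16 genes of ibudilast targets and the MIF axis, 8 reached 100 UMIs, and 0 were past 1.5-fold. Pde3a, Pde4c and Pde11a had 0 UMIs in both libraries, which does not show that they were absent. Mif was at 769 CPM in the ibudilast and 701 CPM in the PBS library (ratio 1.10, interval 1.03 to 1.16), and its receptor chain Cd74 had a ratio of 0.962. Pde4b, a phosphodiesterase of immune cells that breaks down cAMP, was at 18.5 and 19.8 CPM (ratio 0.938, 0.629 to 1.37). Pde4d had 13 and 16 UMIs, of which 1 ibudilast barcode held 69.2%. Response genes of cAMP and the factor CREB had a median log2 ratio of −0.13. Of 12 tested, 2 were higher and 2 lower, beside 2.64% and 2.77% of all tested genes. The higher ones were Vps37b (53.5 and 29.2 CPM, ratio 1.83, or 1.14 without other immune cells' UMIs) and Crem (ratio 1.95), and the lower ones Thbs1 (ratio 0.356, 13 and 139 UMIs, or 0.714 in the upper range) and Gem (ratio 0.499). Vps37b was at 169 and 157 CPM and Crem at 77.7 and 80.3 CPM in T cell barcodes, both above their level in the members.

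The 12 genes that led the higher side of the ibudilast library were mostly genes of other cells. Gzma, a granzyme of killer cells, was at 495 CPM in the ibudilast and 171 CPM in the PBS library (ratio 2.90), and its ratio in C1q macrophages was 3.77. Prf1, perforin, had 100 and 90 UMIs (ratio 4.23), with 21% and 52.2% of them in 1 barcode. Nkg7, Klrd1, Il2rb, Gzmb, Sh2d2a, Ms4a4b, Ptprcap and Gimap5, genes of NK and T cells, had ratios of 2.17 to 3.26. Mbp, a myelin protein of oligodendrocytes, was at 58.8 and 22.3 CPM (ratio 2.64, or 8.35 with each barcode weighted alike), and its ratio in C1q macrophages was 3.02. All 8 lymphocyte genes had ratios above 2 in C1q macrophages as well.

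Over whole marker lists, the 7 NK cell markers summed to 808 CPM in the ibudilast and 274 CPM in the PBS library, against 366 and 102 CPM in C1q macrophages, and 5 of 7 were tested and all 5 higher. The 12 markers of recruited monocytes and macrophages summed to 1874 and 1583 CPM (ratio 1.18, interval 1.14 to 1.23), against 3253 and 2951 CPM in C1q macrophages. Of 10 tested, 4 were higher and 0 lower. Their median log2 ratio was 0.19, or 0.56 in the upper range and 0.33 in C1q macrophages. The 8 T cell markers summed to 101 and 46.3 CPM and the 10 oligodendrocyte markers to 189.5 and 95.03 CPM. Red cell genes summed to 58.2 and 4.31 CPM and were seen in 53.7% and 7.05% of members, against 49.2% and 6.89% of C1q macrophage barcodes. At least 3 UMIs of NK markers were found in 13.4% of ibudilast and 6.55% of PBS members, and in 5.39% and 2.28% of C1q macrophage barcodes. For T cell markers the shares of members were 14.1% and 8.56%. For oligodendrocyte markers they were 28.2% and 26.7% (ratio 1.06, interval 0.720 to 1.52), so these shares were close although the sums differed. Neutrophil markers summed to 364 and 66.1 CPM, and 1 ibudilast barcode held 256 of the 263 S100a8 UMIs of that library. The share of members with at least 3 neutrophil marker UMIs went the other way, at 6.04% in the ibudilast and 11.8% in the PBS library. The 9 markers of border-associated macrophages summed to 1145 and 1048 CPM, of which Ms4a7 made up 920 and 820 CPM. They summed to 1348 and 1014 CPM in C1q macrophages. Of the 9, 4 were tested, with 0 past the fold, and Lyve1 was the 1 marker with 0 UMIs in both libraries. The part of free RNA, of mixed droplets and of depth in the higher genes was not tested. Without members that had 3 or more UMIs of T, NK, B or dendritic cell or neutrophil markers, which left 89 and 223 barcodes, Klrd1, Il2rb and Gimap5 had ratios of 0.663, 0.852 and 0.994 and Ms4a4b and Prf1 of 1.07 and 1.33. Nkg7, Sh2d2a, Gzmb, Gzma and Ptprcap stayed past the fold, at 4.37, 2.84, 2.07, 1.99 and 1.88. Gzma, Prf1 and Nkg7 are among the markers by which those members were left out, so lower levels of such genes follow from this choice. With Cd3 and Ly6c2 at 0 Gzma and Gzmb were at 1.32 and 1.39.

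The genes that led the lower side, beside the chemokines, Lpl and Csf1, mostly had few UMIs in the ibudilast library. Adamts1, a secreted metalloprotease, was at 16.9 CPM in the ibudilast and 41.2 CPM in the PBS library (ratio 0.411, interval 0.276 to 0.594), with 56.2% of the ibudilast UMIs in 1 barcode. Adrb1, an adrenergic receptor that raises cAMP, had 8 and 99 UMIs (ratio 0.307, 0.129 to 0.630). Chka, which starts phosphatidylcholine synthesis, was at 77.3 and 141 CPM (146 and 1016 UMIs, ratio 0.547), but had a ratio of 0.717 in the upper range. Jup, Nes and Cp had 6 and 102, 14 and 141, and 34 and 280 UMIs, with ratios of 0.224, 0.378 and 0.462. H2-M2, a class I-like gene, had 12 and 247 UMIs and a ratio of 0.185, but 2.77 in the upper range, since nearly all of its PBS UMIs lay in the lower range (0 CPM in the ibudilast and 78.7 CPM in the PBS lower range). The direction of H2-M2 thus turned round with the range.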

How the data were processed

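Droplet-based 3' single-cell RNA libraries of CD45+ cells from GL261 gliomas were used, 1 from ibudilast and 1 from PBS mice. Per the file headers, the authors used Cell Ranger 6.1.1 and deposited unnormalised UMI counts for each gene and barcode. The build was mm10, per the submitters' processing notes. Groups follow the labels. Of 31253 gene identifiers 31184 matched GENCODE M21, and Clec7a, Mx1 and Aldoa were not analysed here.

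Counts were summed over the selected barcodes of each library and divided by their summed UMIs (CPM). Genes with at least 100 UMIs over both libraries were called higher or lower past 1.5-fold. Sums have exact Poisson, shares Clopper-Pearson and ratios exact conditional binomial 95% intervals. Only the ratio intervals and the fold rule were run on simulated counts. Those counts were Poisson draws, which the intervals assume, so the check does not cover UMIs clumped in single barcodes. Shares of barcodes with a UMI were taken after thinning to 3000 UMIs, which left out 22 ibudilast and 10 PBS members. Scrublet in scanpy 1.11.5 marked 0 and 0 doublets, so none were removed, and leaving out the highest 6% of scores was an alternative. Other alternatives were edgeR 4.0.16 and DESeq2 1.42.0 scaling, other count limits and stricter filters on barcodes.

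Named genes were the 4 markers, the 12 highest and 12 lowest ratios by the interval bound nearest 1, up to 5 genes per list by UMIs, and the 12 highest over C1q macrophages. Genes named as the few past the fold in a list, or from marker lists, were chosen after their values were seen, as were Ccl7, Tmem119 and Lgals3. The members and lists were chosen with earlier results of these data known. Python 3.11.15 and R 4.3.3 were used.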

Additional observations from a re-analysis of the deposited data

Results flagged for a closer look

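Barcodes with 10% or more mitochondrial UMIs were left out of every comparison. Of these, 10 of 1208 in the ibudilast library and 8 of 718 in the PBS library met the rest of the rule for microglia, which is 0.828% (interval 0.398 to 1.52) and 1.11% (0.482 to 2.18). They were noted because a microglial signal appears in data outside the comparisons, and they would add few barcodes to the 149 and 397 selected.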

How the results depend on the processing

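The ratio of shares of kept barcodes was between 0.372 and 0.444 under 8 alternatives, but 0.601 when a rule-gene CPM of 300 replaced the limit of 3 UMIs and 0.992 when C1q barcodes were the denominator. The 185 higher and 194 lower genes became 300 and 542 with each cell weighted alike, 34 and 80 with members thinned to 3000 UMIs (fewer genes tested), 398 and 359 with a minimum of 50 UMIs and 2286 and 2950 with a minimum of 1 UMI. The higher count was 91 without members that had 3 UMIs of oligodendrocyte markers. It was 101 without those that had 3 UMIs of other immune cells' markers, an alternative chosen after seeing the data, like the upper range. With each cell weighted alike 117 of the 185 and 145 of the 194 genes were still called, and in the upper range 62 and 66 were. Of 266 median log2 ratios of 19 lists under alternatives, 19 moved by more than the counting spread of the list. They were 0.13 for homeostatic and −0.012 for disease-associated genes with each cell weighted alike. Disease-associated genes were also at 0.013 without oligodendrocyte UMIs and 0.064 without other immune cells' UMIs. Class II genes were at 0.090 with thinned members, 0.12 with 5 rule-gene UMIs, −0.11 with 2, 0.11 in the upper range and −0.17 without other immune cells' UMIs. Interferon genes were at 0.26 without oligodendrocyte UMIs and chemokines at −0.57 with 5 rule-gene UMIs. The other 8 were 3 each of immediate early genes (lowest −0.36) and lysosomal genes (highest 0.092) and 2 of cell cycle genes (lowest −0.27). Lists with a wider spread also ranged far, such as cAMP and CREB response genes, from −0.56 to −0.12, and inflammatory cytokines, from −0.45 to −0.20. Of genes past 1.5-fold, those that turned to the other side of 1 were Cxcl13 (0.504 with 5 rule-gene UMIs), Hmox1 (0.928 with Cd3 and Ly6c2 at 0), H2-M2 (2.77 in the upper range), and Klrd1, Il2rb and Gimap5 (0.663, 0.852 and 0.994 without other immune cells' UMIs). The cause was not tested. Of 1792 values of 128 named genes under alternatives, 1334 stayed within the counting interval. In all, 213 values of 72 genes lay on the other side of 1, most of them of genes within 1.5-fold, such as Sparc (0.858) and Crybb1 (0.693) with Cd3 and Ly6c2 at 0, Top2a (0.575) in the upper range, and Mmp12 (0.392) and Spp1 (1.56) without other immune cells' UMIs. The lowest and highest ratios were 0.479 and 0.639 for Ccl2, 0.489 and 0.640 for Ccl3, 0.348 and 0.623 for Lpl, 0.371 and 0.612 for Csf1 and 0.406 and 0.797 for Il1b. No paired analysis was possible because each group has 1 library. Depth limits genes such as Sall1, seen in 8.66% of ibudilast and 7.75% of PBS members thinned to 3000 UMIs.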

Other observations

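Cell cycle genes were the list with the most members past the fold between the libraries. Of 16 tested, 6 were higher in the ibudilast library and 0 lower, beside 2.64% and 2.77% of all tested genes. The median log2 ratio of the list was 0.38. Stmn1, a regulator of microtubules, was at 209 CPM in the ibudilast and 117 CPM in the PBS library (ratio 1.78), with 18.0% of the ibudilast UMIs in 1 barcode. In the upper range the median was −0.31 for the same genes, and −0.27 for those with at least 100 UMIs there. The summed list was at 695 and 847 CPM in the upper range, against 2170 and 1209 CPM in the lower range. The higher level of the ibudilast library thus lay in the lower range, with its 32 and 127 barcodes. After thinning to 1000 UMIs, 22.4% of ibudilast and 17.9% of PBS members had at least 2 UMIs of the list (ratio 1.25, interval 0.802 to 1.92), and without thinning 79.9% and 91.9% did. The thinned share was 19.1% and 19.0% in the upper range, 46.9% and 23.6% in the lower range, and 22.6% and 22.5% in C1q macrophages. Each set was thinned in its own random draw, so the range shares do not combine to the share of all members. The counts were 33 and 71 over all members, 22 and 51 in the upper range and 15 and 30 in the lower range.

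Genes of glycolysis and hypoxia had 0 of 16 members past the fold and a median log2 ratio of 0.10 in the selected barcodes, beside −0.29 in C1q macrophages. Tpi1, a glycolytic enzyme, was at 570 CPM in the ibudilast and 469 CPM in the PBS library (ratio 1.22, interval 1.13 to 1.30), and had a ratio of 0.913 in C1q macrophages. The difference between the 2 sets was not tested. Of 12 tested immunosuppressive macrophage genes 1 was higher, Hmox1, and 1 lower, Thbs1. Hmox1, the haem-degrading enzyme, was at 327 and 180 CPM (ratio 1.82, but 0.928 among members with Cd3 and Ly6c2 at 0), with 5 barcodes holding 59.2% of its ibudilast and 19.9% of its PBS UMIs, while 29.1% and 28.9% of members thinned to 3000 UMIs had a UMI of it, against 7.49% and 6.32% of T cell barcodes. Red cell genes differed in the same direction, at 58.2 and 4.31 CPM, and their part in the Hmox1 value was not tested.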
